A study of Mus musculus with 8 samples.

Results

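Macrophages from mice labelled wild type (WT) were compared with and without 6 hours of interleukin 4 (IL-4), as the level of each gene with IL-4 set against its level with PBS. The members are the 13384 genes listed in both of the authors' deposited tables, matched by Ensembl gene ID, out of 14485 listed in either. Cells came from the bone marrow of female mice aged 12 weeks, WT or knocked out for NF-κB-inducing kinase (NIK KO). After lysis of red cells the marrow was cultured for 7 days in 30% medium conditioned by L929 cells, which supplies the macrophage growth factor M-CSF, and replated in 5%. The 4 groups were WT with PBS, WT with 20 ng/mL IL-4, NIK KO with PBS and NIK KO with 20 ng/mL IL-4. Each group had 2 mice, and per the sample titles the same 2 mice of a genotype gave both treatments. Culture with M-CSF enriches for macrophages, and no cell sort is described in the labels. The labels give neither the strain nor the part of the NIK gene that was removed.

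IL-4 is the cytokine of T helper 2 responses, to parasites and allergens, that turns macrophages to the state called alternative activation. It binds IL-4Rα, which pairs with the common γ chain or with IL-13Rα1, and the attached Janus kinases phosphorylate STAT6, which enters the nucleus and binds DNA as a dimer. Cells in this state are known for arginase 1, the mannose receptor, resistin-like molecule α and chitinase-like proteins, and for making less of the inflammatory output that interferons and Toll-like receptors drive.

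The promoters below are shown because they belong to genes at both ends of the response and hold the letters that STAT6 dimers or interferon regulatory factors (IRFs) are known to prefer. They are RefSeq sequences of build GRCm38.p6, and capitals mark the match. The first 3 genes were far higher with IL-4 and hold TTCNNNNGAA, the spacing known for STAT6. Retnla lies on the plus strand at chr16:48842359-48842550, Pdcd1lg2 on the plus strand at chr19:29410669-29410918 and Clec7a on the minus strand at chr6:129472780-129473029.
Retnla: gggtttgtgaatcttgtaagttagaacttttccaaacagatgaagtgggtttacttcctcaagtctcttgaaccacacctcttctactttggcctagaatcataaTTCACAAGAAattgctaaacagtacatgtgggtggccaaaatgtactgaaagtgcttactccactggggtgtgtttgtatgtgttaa
Pdcd1lg2: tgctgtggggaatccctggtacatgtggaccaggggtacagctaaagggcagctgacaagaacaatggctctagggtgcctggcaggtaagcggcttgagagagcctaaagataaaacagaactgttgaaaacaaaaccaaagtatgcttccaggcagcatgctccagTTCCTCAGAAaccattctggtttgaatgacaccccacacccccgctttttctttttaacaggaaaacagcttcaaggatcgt
Clec7a: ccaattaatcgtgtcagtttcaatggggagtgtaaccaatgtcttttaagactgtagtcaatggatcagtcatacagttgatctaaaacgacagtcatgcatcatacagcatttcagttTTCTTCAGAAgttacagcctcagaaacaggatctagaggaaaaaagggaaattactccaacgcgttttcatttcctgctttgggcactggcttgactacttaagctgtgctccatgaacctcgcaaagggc

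The other 3 promoters hold GAAANNGAAA, the repeat known for IRFs, on one strand or the other. Ifit3 and Cxcl10 were lower with IL-4, and Socs1, which holds overlapping copies, was higher. Ifit3 lies on the plus strand at chr19:34583279-34583528, Cxcl10 on the minus strand at chr5:92348890-92349139 and Socs1 on the minus strand at chr16:10785537-10785786.
Ifit3: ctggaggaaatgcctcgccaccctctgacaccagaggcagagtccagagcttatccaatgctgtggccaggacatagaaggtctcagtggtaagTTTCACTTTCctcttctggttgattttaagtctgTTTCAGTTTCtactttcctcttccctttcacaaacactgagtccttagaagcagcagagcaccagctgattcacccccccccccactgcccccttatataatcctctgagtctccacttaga
Cxcl10: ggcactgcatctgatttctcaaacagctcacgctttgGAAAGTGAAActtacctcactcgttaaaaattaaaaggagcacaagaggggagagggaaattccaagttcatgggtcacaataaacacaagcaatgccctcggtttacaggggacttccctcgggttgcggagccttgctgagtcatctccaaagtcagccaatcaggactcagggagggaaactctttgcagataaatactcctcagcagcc
Socs1: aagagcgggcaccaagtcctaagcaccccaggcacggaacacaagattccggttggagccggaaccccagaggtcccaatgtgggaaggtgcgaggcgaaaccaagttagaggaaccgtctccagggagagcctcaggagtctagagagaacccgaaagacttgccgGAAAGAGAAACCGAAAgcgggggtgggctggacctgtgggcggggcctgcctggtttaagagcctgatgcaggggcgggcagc

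The matches start 145 bases before the start site in Retnla, 82 in Pdcd1lg2, 131 in Clec7a, 213 in Cxcl10, 156 and 122 in Ifit3, and 83 and 77 in Socs1. Both motifs were searched on both strands in the 250 bases before each start site. Over the 32851 RefSeq promoter windows searched, TTCNNNNGAA was in 5.85% and GAAANNGAAA in 2.98%. A chromosome was left out of the search, so genes on it have no window here. A match is a description of letters, and binding was not measured.

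Each deposited table gives, per gene, the base mean over its 4 libraries and the fold change of NIK KO over WT, and from these the WT mean, in normalized counts, follows for each treatment. The ratio of the WT mean with IL-4 to that with PBS was divided by 1.20, its median over the 9148 genes of base mean 100 or more in both tables. All folds and log2 ratios below are relative to that centre, so a fold is smaller than the plain quotient of the means printed beside it, and without the centre every log2 ratio would be 0.26 higher. The tables were normalized separately and hold no value per library, so no SD over mice and no test of IL-4 against PBS can be given. An approximate error, made from the deposited standard errors and printed after ±, serves as a yardstick on the log2 scale. It takes both genotypes to vary alike and the tables to be independent, although the same mice gave both treatments, and its median was 0.27 over the genes counted. The same ratio in the 2 NIK KO mice, from the same tables, is given as a second look. Map3k14, the gene of NIK, had a mean of 425 with PBS and 418 with IL-4 in libraries labelled WT, against 902 and 832 in those labelled NIK KO. A knockout that lowers the message would give the reverse, but the labels do not give the part of the gene removed. The cause was not tested. Were the direction of the tables reversed, the WT and NIK KO values given side by side here would change places.

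Counts below are over the 10278 of 13384 genes whose 2 WT means averaged 50 or more. The WT mean was at least 2-fold higher with IL-4 for 326 genes, 3.17% of those counted, and at least 2-fold lower for 289, 2.81%. Large differences lay on the higher side: 103 genes were past 4-fold higher and 34 past 4-fold lower, and 44 were past 8-fold higher and 3 lower. Most genes stayed close to the centre, with 8734 (85.0%) within 1.5-fold. Of the 326 higher genes 313 exceeded 2 approximate errors, and of the 289 lower genes 248 did. In the NIK KO mice 260 of the higher genes (79.8%) and 193 of the lower genes (66.8%) were also past 2-fold the same way. Without the division by the centre the counts would be 518 higher and 142 lower. A gene can pass the limit of 50 on 1 high mean alone: of the higher genes 95 had a PBS mean under 50, and of the lower genes 55 had an IL-4 mean under 50. Over the 10005 genes with both means at 50 or more, 231 were higher and 234 lower. Counts in the gene lists below are to be read against 3.17% and 2.81%, so that in a list of 30 genes 1 past 2-fold on either side is near the background. RNA came from whole cultures, so fewer cells of a type and less RNA per cell cannot be told apart.

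**Figure D1:**
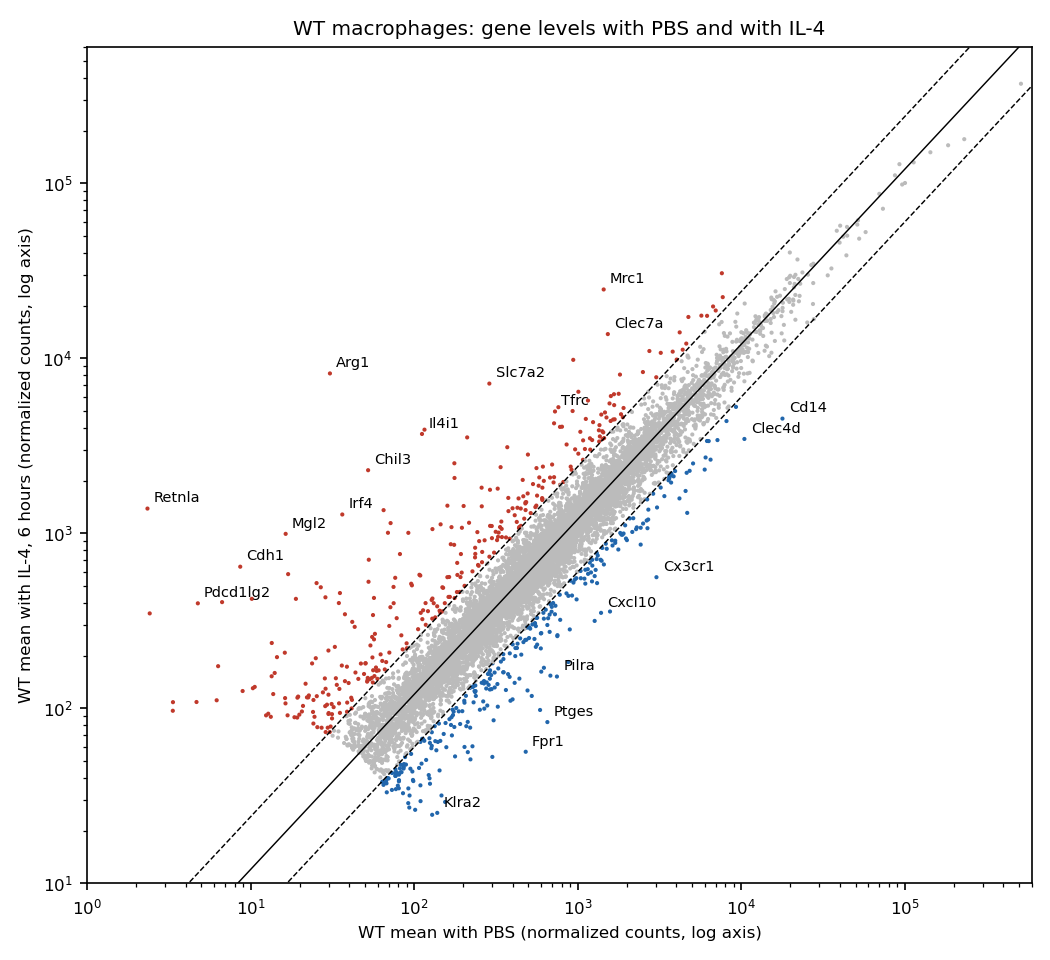
Each point is 1 of the genes counted, by its WT mean with PBS (x axis) and with IL-4 at 6 hours (y axis), in normalized counts on log axes; the solid line is the centre, the dashed lines are 2-fold, and red and blue mark the 326 higher and 289 lower genes. Arg1 and Retnla, far above the band, start from low PBS means, and Cd14 and Cx3cr1, below it, from high ones. This is no general split: Mrc1 (1442) and Clec7a (1529), above the band, start higher than Klra2 (138) and Trim30b (129), below it. The limit on the average WT mean also favours low PBS means far above the band. Not drawn is 1 gene with an IL-4 mean under the axis.

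The cultures had the markers of macrophages under both treatments. Csf1r, the M-CSF receptor, had a mean of 44354 with PBS and 56268 with IL-4 (log2 ratio 0.08), and Adgre1, which encodes F4/80, 19938 and 29592 (0.30). Of the 23 genes of macrophage identity, 2 were past 2-fold higher and 2 lower (Cd14 and Fcgr1), and 15 lay below the centre (median -0.28). Their WT means summed to 716566 with PBS and 594701 with IL-4, of which Lyz2, lysozyme, made up the largest part (513619.8 against 370074, log2 ratio -0.74). Of the marker lists of other cells, those of T and NK cells, mast cells and basophils, and eosinophils had 0 members with WT means averaging 50. The neutrophil list had 3, with sums over its 7 listed members of 978 and 1064, most of it Mmp8 (749.6 and 773). The B cell list had 2 and the dendritic cell list 1, all within 2-fold. The endothelial list had 3, Pecam1 higher and Kdr lower past 2-fold, and Vwf at 870.2 and 1565 (0.58). The part of these markers in other results was not tested. The levels of fibroblast and erythroid markers are low and are given with the genes they move with, further down.

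Markers of alternative activation led the response. Retnla (ENSMUSG00000061100), which encodes the secreted resistin-like molecule α, had a mean of 2.34 normalized counts with PBS and 1385 with IL-4, 493-fold higher. Its PBS level is close to the smallest that the table lists, so the ratio is imprecise (8.94 ± 1.81 on the log2 scale, 8.62 in NIK KO). Arg1 (ENSMUSG00000019987), the arginase that splits arginine into urea and ornithine, had a mean of 30.5 with PBS and 8190.2 with IL-4, 223-fold higher (7.80 ± 0.57, NIK KO 8.41). Mrc1 (ENSMUSG00000026712), the mannose receptor CD206, was already expressed with PBS. It went from 1442 to 24715, 14.3-fold higher (3.83 ± 0.23, NIK KO 3.85). All 3 markers thus stood several approximate errors above the centre in the libraries labelled WT and were past 2-fold higher in the other 2 mice.

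The 15 genes of highest and the 15 of lowest ratio were taken among genes with a name, leaving out predicted genes, Riken clones and pseudogenes. The entry of lowest ratio of all was left out by this rule: the pseudogene Pgam1-ps2 had a WT mean of 530 with PBS and 0.18 with IL-4, below the smallest base mean listed, so no fold is given. The 15 genes of highest ratio also hold surface and secreted proteins. Pdcd1lg2, the PD-1 ligand PD-L2, had a mean of 4.76 with PBS and 398 with IL-4 (69.7-fold). Cdh1, the adhesion protein E-cadherin through which macrophages can fuse, went from 8.64 to 644 (62.1-fold), and Pecam1, the adhesion molecule CD31, from 10.2 to 422 (34.6-fold). Chil3, the chitinase-like protein Ym1, went from 52.3 to 2293 (36.5-fold). These 4 genes had low PBS means, so that their ratios carry wide errors, from 0.44 for Chil3 to 1.22 for Pdcd1lg2. Flt1, a receptor for vascular endothelial growth factor, went from 116 to 3909 (28.1-fold), and St8sia1, which makes the ganglioside GD3, from 6.69 to 404 (50.3-fold). Tmem26 (4.84), the claudin gene Cldn11 (4.59) and Hebp2 (4.52, log2) complete the group with Mgl2, Irf4, Il4i1 and Slc7a2, which are described below.

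**Figure D2:**
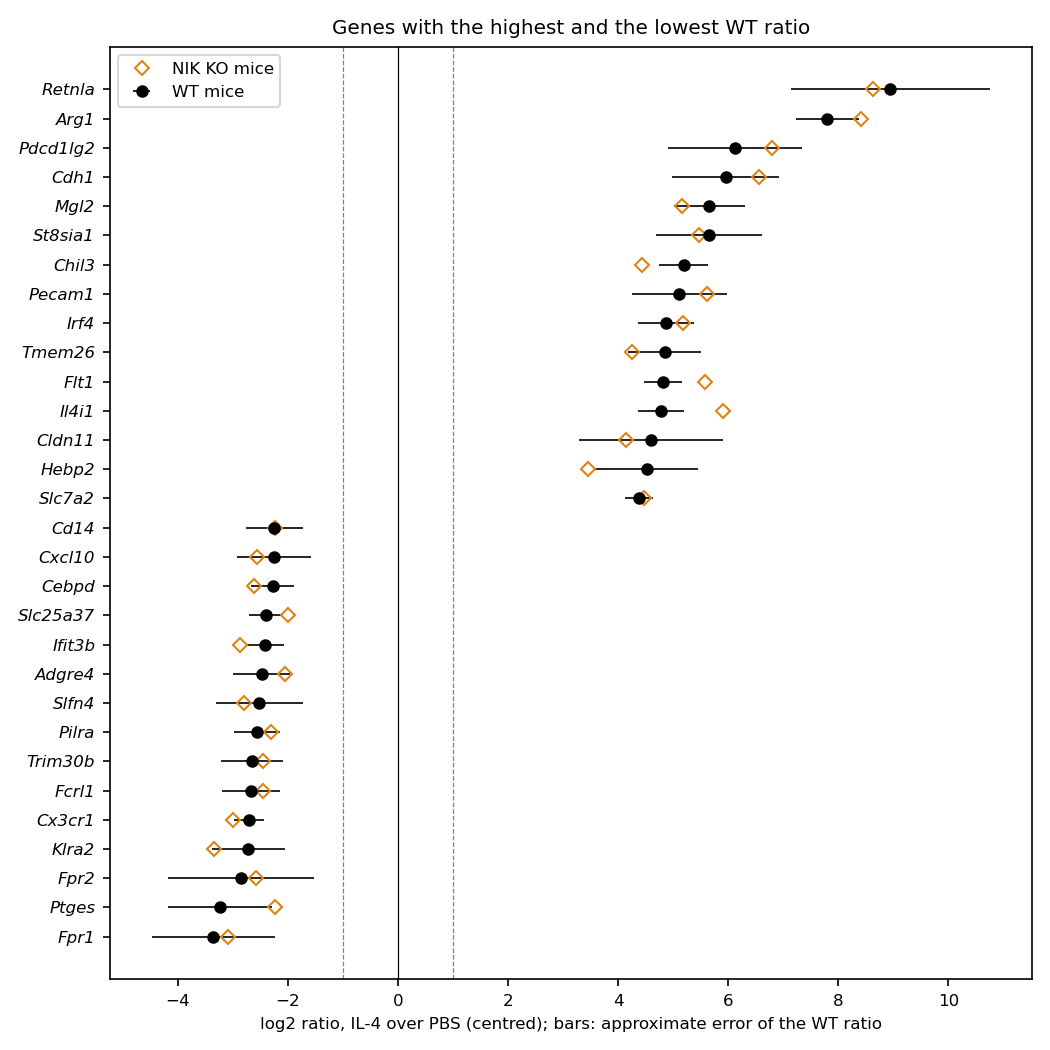
The 15 genes of highest and the 15 of lowest WT ratio (unnamed, predicted and pseudogene entries left out), with the log2 ratio of IL-4 over PBS in WT mice (filled circles, bars show the approximate error) and in NIK KO mice (open diamonds); dashed lines mark 2-fold. Every one of the 30 genes lies past 2-fold on the same side in both genotypes, and the higher genes drawn reach 8.94 while the lower ones drawn reach -3.35.

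The genes of the IL-4 receptor and its kinases differed little, with 1 of 11 past 2-fold and a median log2 ratio of 0.07. Il4ra, the chain that binds IL-4, had a mean of 1387 with PBS and 1571 with IL-4 (-0.09 ± 0.21), which is above 0 without the centring, and Il2rg, the common γ chain, 2379 and 2994 (0.07). Stat6, the transcription factor of the pathway, had 4031 and 4094 (-0.24, also above 0 without the centring). Its message thus stayed near the centre, and the phosphorylation that switches it on is not seen in RNA. Il13ra1, the chain of the other receptor form, was lower without reaching 2-fold, 288 against 202 (-0.78 ± 0.35). Jak2, a Janus kinase, was the exception, with 965 against 3018, 2.60-fold higher (1.38 ± 0.25). The other kinases Jak1 (0.18), Jak3 (-0.34) and Tyk2 (-0.09) and the docking proteins Irs2 (0.80), Gab2 (0.74) and Pik3r1 (0.21) stayed within 2-fold.

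Some of the inhibitors that cytokines induce against their own receptors had high ratios. Socs1, which blocks Janus kinases, had a mean of 71.8 with PBS and 1144 with IL-4 (13.3-fold, 3.73 ± 0.41). Cish, a STAT-induced relative, went from 35.2 to 456 (10.8-fold) and Socs2 from 14.0 to 159 (9.44-fold). Socs3, the member best known to restrain IL-6 signalling, went the other way, from 1152 to 624 (2.22-fold lower), though its approximate error is 1.17 and its NIK KO log2 ratio of -0.87 is short of 2-fold. Of the 13 inhibitors counted, 4 were past 2-fold higher and 1 lower, while the phosphatase gene Ptpn6 (-0.43) stayed within 2-fold.

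Transcription factors of alternative activation had the highest median of the 44 functional lists, 1.05 on the log2 scale against 0.00 for all genes counted. Of the 16 counted, 8 were past 2-fold higher and 1 lower. Irf4, an IRF needed for much of the alternative programme, had a mean of 36.3 with PBS and 1281 with IL-4 (29.3-fold). Batf3, an AP-1 family partner of IRF4, went from 25.3 to 519 (17.1-fold) and Egr2, a zinc finger factor that STAT6 is known to induce, from 176 to 2512 (11.9-fold). Ppargc1b, a coactivator of genes for mitochondria and fatty acid oxidation, went from 41.8 to 312 (6.21-fold). Irf4, Batf3 and Ppargc1b were the 3 counted members with a mean under 50, in each case with PBS. The circadian repressors Nfil3 (2.57) and Bhlhe40 (2.24), the Krüppel-like factor Klf4 (1.28) and the lipid-sensing receptor Pparg (1.16) were the rest past 2-fold higher. Bhlhe41, the close relative of Bhlhe40, was lower, 1223 against 531 (2.77-fold). Maf, which restrains the self-renewal of macrophages, stood at -0.99 ± 0.21, just within 2-fold.

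**Figure D3:**
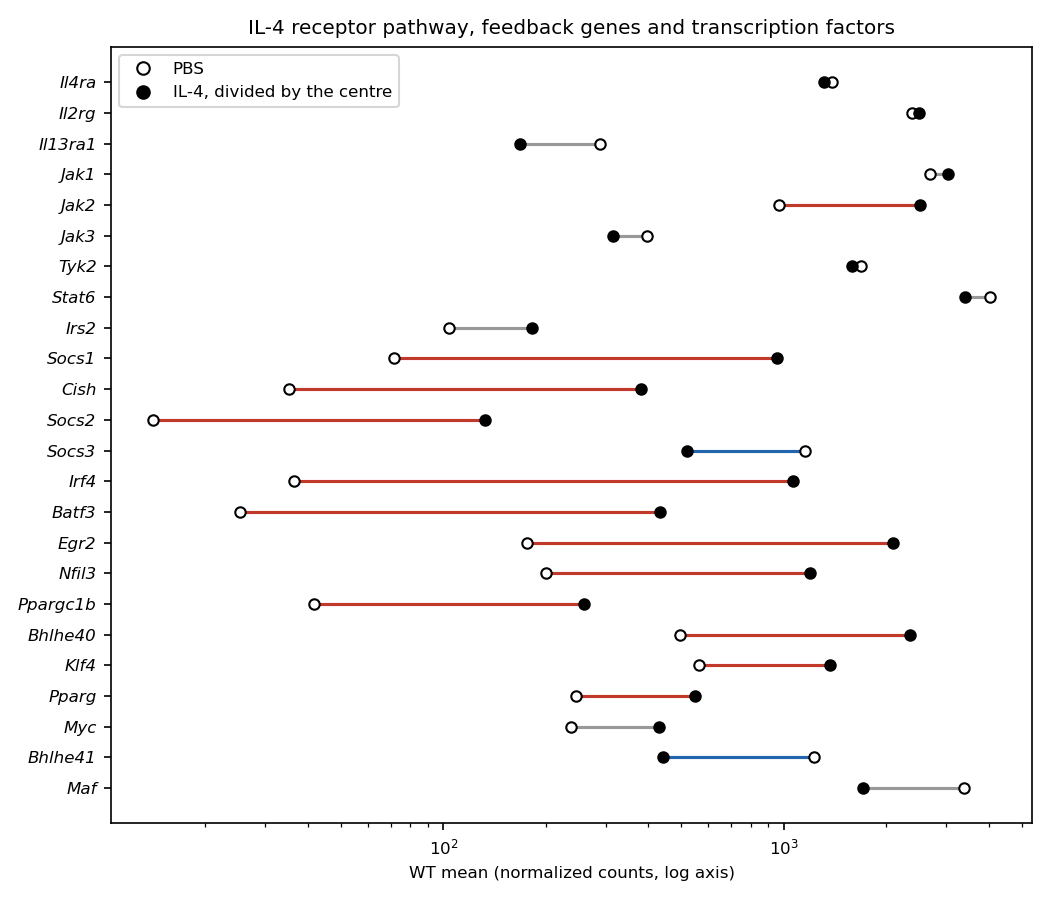
WT means of genes of the IL-4 receptor pathway, feedback inhibitors and transcription factors, in normalized counts on a log axis, with PBS (open circles) and with IL-4 divided by the centre (filled circles); red lines join genes past 2-fold higher, blue lines genes past 2-fold lower and grey lines the others. Receptor chains and Stat6 show short lines, while Socs1, Cish, Socs2, Irf4, Batf3 and Egr2 show long ones.

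Among the 15 counted factors of inflammatory activation, 1 was past 2-fold higher and 0 lower. Rel, the NF-κB subunit c-Rel, had a mean of 480.2 with PBS and 1357 with IL-4 (2.35-fold higher). Nfkb1 (0.88) and Irf1 (0.60) stood above the centre and Stat2 (-0.62) and Irf7 (-0.51), factors of the interferon response, below it. Of the immediate early genes, which respond within minutes to many signals, Fosl2 (1.58) and Ier3 (1.60) were higher and Fos (-1.03) and Dusp1 (-1.03) lower, both of the latter just past 2-fold. Cebpd, an inflammatory C/EBP factor, was among the 15 lowest genes, 1269.9 against 316 (4.83-fold lower).

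Arginine handling differed at its entry and at one enzyme. Slc7a2, the cationic amino acid transporter that brings arginine into macrophages, had a mean of 288 with PBS and 7167 with IL-4 (20.7-fold, 4.37 ± 0.25). Il4i1, a secreted oxidase of phenylalanine, went from 112 to 3694 (27.5-fold). With Arg1 these were the 3 of 18 counted members past 2-fold, and the polyamine enzymes stayed near the centre, with Odc1, which makes putrescine from the ornithine that arginase yields, at 0.57 and Sat1 at 0.65. Nos2, the nitric oxide synthase that competes for arginine in inflammatory macrophages, was low under both treatments, 109 and 105 (-0.32 ± 0.58).

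Secreted growth factors were split. Fn1, the matrix protein fibronectin, had a mean of 37.7 with PBS and 345 with IL-4 (7.60-fold), with a smaller fold in NIK KO (2.63). Pdgfa, a platelet-derived growth factor, went from 315 to 1020.3 (2.69-fold), and insulin-like growth factor 1, Igf1, from 6729 to 19758 (2.44-fold). Vegfa, the angiogenic growth factor, was lower, 782 against 320.3 (2.93-fold), while its receptor gene Flt1 was among the highest ratios and the other receptor gene Kdr was lower (-1.33). Of the 11 counted members of the list with Retnla and Chil3, 5 were past 2-fold higher and Vegfa lower.

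Lectin receptors fell into opposite groups. Mgl2, which binds galactose and N-acetylgalactosamine, had a mean of 16.4 with PBS and 993 with IL-4 (50.4-fold), and its neighbour in the family Clec10a went from 65.0 to 1356 (17.4-fold). Clec7a, the β-glucan receptor dectin-1, went from 1529 to 13742 (7.48-fold, 2.90 ± 0.26). These 3 and Mrc1 recognise sugars and are known as products of alternative activation. Clec4d, a receptor for mycobacterial glycolipids, was lower, 10458 against 3459 (3.63-fold, -1.86 ± 0.23). Its partner Clec4e (mincle) had 7157 against 3408 (2.52-fold lower, approximate error 0.94) and Clec4n (dectin-2) 694 against 380.0 (2.20-fold lower). In all, 5 of 17 lectins and scavenger receptors were past 2-fold higher and 3 lower.

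Of 12 molecules through which macrophages signal to T cells, 4 were past 2-fold higher and 2 lower, against 3.17% and 2.81% of all genes counted. Beside Pdcd1lg2, the other PD-1 ligand Cd274 (PD-L1) had a mean of 698 with PBS and 2471 with IL-4 (2.95-fold). Cd83 went from 196 to 1075 (4.57-fold) and Cd40, the receptor for CD40 ligand, from 608 to 1572 (2.15-fold; 1.98-fold in NIK KO, just under 2). The ligands Icosl, of ICOS, and Tnfsf9, of 4-1BB, were lower by 2.33-fold and 2.29-fold. In MHC class II presentation, Ciita, the master activator of the class II genes, had 243 against 1016 (3.47-fold higher), and H2-DMa, a peptide exchange factor, 449 against 1385 (2.57-fold higher). The invariant chain Cd74 was just short of 2-fold (1.97-fold), and the peptide-binding chains H2-Aa (0.21), H2-Ab1 (0.13) and H2-Eb1 (0.14) stood close to the centre. Of the 9 class II members counted 2 were past 2-fold, and of 18 class I members 0 were.

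Adhesion and cell fusion genes had 5 of 21 past 2-fold higher and 0 lower. Beside Cdh1, Itgax, the integrin CD11c, had a mean of 291 with PBS and 1772 with IL-4 (5.07-fold), and Itgb3, the β3 integrin, 71.6 and 378 (4.40-fold). Dcstamp (2.46-fold) and Atp6v0d2 (2.49-fold), both needed for the fusion of osteoclasts and giant cells, were higher as well. Most integrin chains of macrophages, such as Itgam (-0.15) and Itgb2 (-0.12), stayed near the centre. In the lysosome, 1 of 28 genes was past 2-fold, near the 3.17% of all genes, the proton pump subunit Atp6v0a1, with 1814 against 8068 (3.70-fold higher).

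Interferon-stimulated genes were the functional list with the lowest median, -0.81 on the log2 scale (-0.54 without the centring), with 14 of 44 past 2-fold lower against 2.81% of all genes counted, and 0 higher. Ifit3, which encodes an antiviral protein, had a mean of 4674 with PBS and 1308 with IL-4 (4.29-fold lower, -2.10 ± 0.25). Its near copy Ifit3b went from 681 to 154 (5.32-fold lower), and the pair shares 61.8% of the 31-base words of Ifit3, so the division of reads between them is uncertain. Ifi205, of the DNA-sensing family, went from 213 to 56.2 (4.55-fold lower) and the nuclease gene Isg20 from 752 to 262 (3.45-fold lower). The antiviral genes were thus well transcribed with PBS and lower with IL-4. Of the 44 genes 42 lay below the centre, and the highest was Gbp2 (0.07, -0.40 in NIK KO), followed by Usp18 (0.04), which damps interferon signalling. In the NIK KO mice 13 of the 14 were also past 2-fold lower and the median was -0.84. Slfn4 (-2.52 ± 0.79) and Trim30b (-2.65 ± 0.57), of gene families known to respond to interferon, were among the 15 lowest genes.

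Inflammatory cytokines were lower where they passed 2-fold, 5 of 13 counted. Il1b, the inflammasome-processed cytokine, had a mean of 388 with PBS and 111 with IL-4 (4.22-fold lower, -2.08 ± 1.06). Tnf went from 1851 to 984 (2.26-fold lower, -1.18 ± 0.89) and Il1a from 98.8 to 38.4 (3.09-fold lower). Nlrp3, the sensor of the inflammasome, had 1619 against 911 (-1.09 ± 0.30), and Il18 was the fifth. The approximate errors of Il1b and Tnf are wide, and both genes lie less than 2 of them from the centre. Acod1, which makes itaconate, had 8127 against 4378 (2.23-fold lower, approximate error 1.09).

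Chemokines past 2-fold were CC members on the higher side and CXC members on the lower side. Ccl24 (eotaxin-2), which draws eosinophils, had a mean of 6.20 with PBS and 111 with IL-4 (14.9-fold higher). Ccl7, which draws monocytes, went from 176 to 859 (4.07-fold). Ccl22, a ligand of CCR4 on T helper 2 and regulatory T cells, went from 227 to 606 (2.22-fold, 1.15 ± 0.68). These were the 3 of 11 CC chemokines past 2-fold, and 0 were lower by that much. In all 7 CC members lay above the centre and 4 below, among them Ccl3 (-0.86 ± 0.91) and Ccl5 (-0.82 ± 1.10). The CC median was 0.30 in WT and -0.11 in NIK KO. Of the 8 CXC and other chemokines 2 were past 2-fold, both lower. Cxcl10, the interferon-induced ligand of CXCR3, went from 1389 to 351 (4.75-fold lower, -2.25 ± 0.68) and Cxcl14 from 264 to 109.5 (2.90-fold lower).

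Some receptors for chemoattractants were among the 15 lowest genes. Fpr1, the receptor for formylated bacterial peptides, had a mean of 481 with PBS and 56.5 with IL-4 (10.2-fold lower, -3.35 ± 1.12), and Fpr2 589 against 97.9 (7.23-fold lower, -2.85 ± 1.33; 48.3% of its 31-base words occur in other genes). Cx3cr1, the fractalkine receptor, was lower with a small error, 3031 against 561 (6.49-fold, -2.70 ± 0.27). P2ry1, a receptor for ADP, was the highest of the list, 92.1 against 1006 (9.09-fold higher). Of 19 receptors counted 4 were lower and 2 higher past 2-fold.

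Some sensors of bacteria were lower. Cd14, the co-receptor that hands lipopolysaccharide to TLR4, had a mean of 17872 with PBS and 4521 with IL-4 (4.75-fold lower, -2.25 ± 0.52), and Tlr2, the receptor for bacterial lipopeptides, 6055 against 2711 (2.68-fold lower). Irak3, an inhibitor of the pathway, was lower too, 1314 against 519 (3.04-fold). Tlr8 was higher (2.06-fold), and Tlr4 itself stood at 0.77 ± 0.24. Thus 3 of 23 genes of this pathway were past 2-fold lower and 1 higher, while 11 lay above the centre and 12 below it (median -0.16, 0.11 without the centring and 0.03 in NIK KO). Among Fc receptors, the inhibitory Fcgr2b went from 1009.7 to 6436 (5.30-fold higher, 2.41 ± 0.27), and the activating Fcgr1 from 5978 to 2311 (3.11-fold lower, -1.64 ± 0.27). The activating Fcgr3 stood above the centre, at 0.91 ± 0.24.

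Eicosanoid enzymes differed along the pathway. Ptgs1, the constitutive cyclooxygenase, had a mean of 762 with PBS and 5252 with IL-4 (5.74-fold higher, 2.52 ± 0.27), and Tbxas1, which makes thromboxane from its product, 1359 against 4148 (2.54-fold higher). Ptges, which makes prostaglandin E from the same product, was lower, 653 against 83.5 (9.40-fold, -3.23 ± 0.94; 4.73-fold in NIK KO). Alox5, the first enzyme of leukotriene synthesis, went from 595 to 219.9 (3.25-fold lower), while Ltc4s (2.23-fold) and Ggt5 (4.97-fold), which act later on cysteinyl leukotrienes, were higher. Ggt5 had a PBS mean of only 19.5 (2.31 ± 0.62). Of 16 enzymes counted 5 were past 2-fold higher and 2 lower. The remaining higher gene was Pla2g15 (2.39-fold, 2.28-fold in NIK KO). In NIK KO 4 of the 5, Ptgs1, Tbxas1, Ggt5 and Pla2g15, also passed 2-fold, and Ltc4s did not. Both lower genes passed 2-fold in NIK KO too. The list median was 0.48 in WT and 0.05 in NIK KO.

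Most genes of energy metabolism stayed close to the centre. Respiratory chain complex I had 0 of 37 nuclear genes past 2-fold (median 0.04) and complexes II to V 1 of 37 (median 0.08), the ATP synthase gene Atp5g2 (57.1 against 153). Both medians have the other sign in NIK KO, at -0.09 and -0.14. Of the 13 mitochondrially encoded genes 2 were past 2-fold lower in WT and not in NIK KO. These were mt-Nd4l (-1.33 ± 0.25, -0.48 in NIK KO) and mt-Atp6 (-1.08 ± 0.97, -0.71 in NIK KO). They share 98.9% and 99.5% of their 31-base words with other genes, so the division of reads is uncertain for both. In WT 8 of the 13 lay above the centre, with a median of 0.08. The TCA cycle had a median of 0.17 with 0 past 2-fold higher and 1 lower, Acod1, whose itaconate leaves the cycle. Fatty acid oxidation, which alternative activation is known to draw on, had 16 of 19 genes above the centre and 0 past 2-fold. Its median was 0.22 in WT, under the median approximate error of 0.24 of its genes, and 0.05 in NIK KO. Its highest was Hadhb, of the mitochondrial trifunctional protein, 679 against 1327 (1.63-fold, 0.70 ± 0.25). Glycolysis had 0 of 24 past 2-fold and a median of -0.02 (0.24 without the centring), with Pfkfb4 (0.95) and Pfkp (0.93) highest and Pfkfb3 (-0.82) lowest.

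Lipid handling differed at single genes. Abcg1, the exporter of cholesterol to lipoproteins, had a mean of 1590.2 with PBS and 4381 with IL-4 (2.29-fold higher), and Mylip, which degrades the LDL receptor, 726 against 345 (2.53-fold lower). Both are known targets of the oxysterol receptor LXR, so this list of 16 had members past 2-fold on either side, 1 higher and 2 lower. Cd36, the scavenger receptor that takes up oxidised lipoproteins, went from 7589.8 to 16112 (1.77-fold). Cholesterol synthesis had 0 of 23 past 2-fold and a median of -0.26, which is 0.00 without the centring.

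Oxidative defence lay below the centre as a list. Antioxidant genes and targets of NRF2 had 26 of 30 members below it and a median of -0.43 (-0.16 without the centring), with 3 past 2-fold lower and 0 higher. Gsr, glutathione reductase, had a mean of 1113 with PBS and 516 with IL-4 (2.59-fold lower, -1.37 ± 0.27). Hmox1, the oxygenase that breaks down haem, went from 6328 to 3364 (2.26-fold lower, -1.18 ± 0.25) and Sod2, the mitochondrial superoxide dismutase, from 6177 to 3367 (2.20-fold lower, approximate error 0.80). All 3 were lower by more than 2-fold in NIK KO too (-1.56, -1.06 and -1.10 on the log2 scale).

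Growth and division genes differed by small amounts. All 32 genes of G2/M and mitosis lay below the centre in WT, with a median of -0.33 (-0.06 without the centring) and 0 past 2-fold. Plk1, a kinase of mitotic entry, had a mean of 687 with PBS and 542 with IL-4 (-0.61 ± 0.27), and Ube2c, which helps to end mitosis, 949 against 798 (-0.51 ± 0.24). Each single difference is within or near 2 approximate errors. Ribosome biogenesis had 28 of 30 above the centre, a median of 0.23 and 0 past 2-fold, led by Gar1 (0.76, 0.15 in NIK KO) and with Ncl, nucleolin, at 4707 against 8349 (0.56). Cytosolic ribosomal proteins (median -0.05, 0.22 without the centring) and DNA replication (-0.09) had 0 of 50 and 0 of 32 past 2-fold. Of the 14 BCL2 family genes counted, 1 was past 2-fold higher and 1 lower, with 7 above the centre and 7 below (median 0.02). The survival gene Bcl2 went from 55.3 to 256 (3.85-fold higher). The death gene Bmf went from 621 to 325 (2.29-fold lower), short of 2-fold in NIK KO (-0.84). Another death gene, Bcl2l11, stood above the centre (0.85 ± 0.23).

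**Figure D4:**
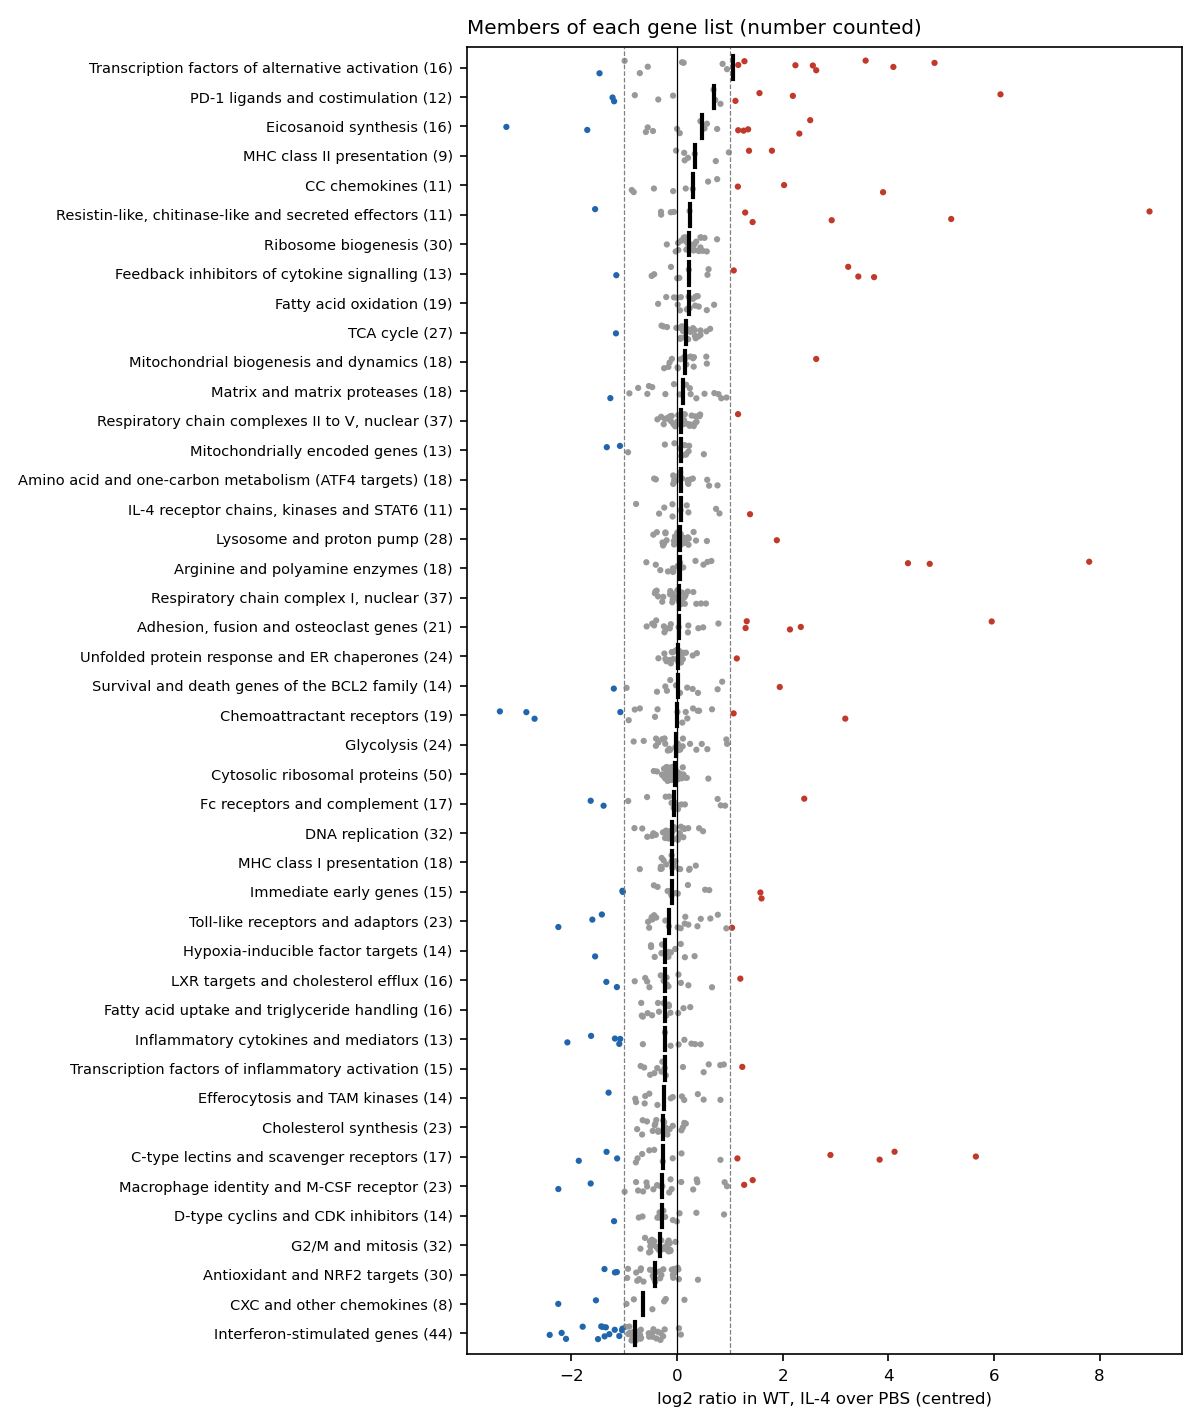
Each point is a counted member of 1 of the functional lists, by its WT log2 ratio of IL-4 over PBS; the number counted is in brackets, black bars are list medians, dashed lines are 2-fold, and red and blue mark members past 2-fold higher and lower. Transcription factors of alternative activation have the highest median (1.05) and interferon-stimulated genes the lowest (-0.81), while the respiratory chain and ribosomal protein lists have medians close to the centre.

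In most lists a few members stood far out while the rest stayed near the centre. The promoters were searched for the motifs described with the sequences. Among the 253 genes past 2-fold higher that have a RefSeq promoter window, 26 (10.3%) hold TTCNNNNGAA, against 455 of 8124 (5.60%) of all genes counted and 14 of 212 (6.60%) of the lower genes. Of the 73 past 4-fold higher 12 do, among them Retnla, Pdcd1lg2 and Clec7a with the sequences printed above, as well as Tmem26 and Hebp2. The same letters are in 3 of the 21 genes past 4-fold lower and in 7 of the 34 interferon-stimulated genes with a window, shares of a like size. The lower genes hold GAAANNGAAA in 22 of 212 (10.4%), against 290 of 8124 (3.57%) of genes counted and 13 of 253 (5.14%) of the higher genes. That motif is in 20 of the 34 interferon-stimulated genes with a window, some of which are among the lower genes. Ptges, far lower with IL-4, holds TTCNNNNGAA too, and Socs1, far higher, holds GAAANNGAAA.

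A small set of genes was past 2-fold higher in WT with a low ratio in NIK KO. Of the 326 higher genes 22 had a NIK KO ratio under 1.5. Of these, 9 are members of the fibroblast, erythroid or placental and fetal lists, a grouping chosen after their values were seen. The collagen gene Col11a2 is also among the 22, outside the fibroblast list. Col3a1, a fibroblast collagen, had a mean of 28.7 with PBS and 129 with IL-4 in WT (1.91 ± 0.75), against 18.4 and 25.6 in NIK KO (0.20). Hbb-bs, an adult β-globin of red cells, went from 18.5 to 89.0 (2.00 ± 0.66; 0.31 in NIK KO), and it shares 66.9% of its 31-base words with another gene. Tpbpa, a trophoblast protein, went from 74.9 to 399 (2.15; 0.40 in NIK KO). Col3a1, Hbb-bs and Tpbpa were each highest in WT with IL-4 among the 4 groups. Choosing genes by a high WT ratio and a low NIK KO ratio favours this order, so it is no separate observation. The limit on the average WT mean favours it too for genes low with PBS. Over the whole fibroblast list, the 9 members listed in both tables summed to 175 with PBS and 516 with IL-4 in WT, and to 187 and 229 in NIK KO. The 4 erythroid members summed to 89.1 and 336 in WT and to 102 and 149 in NIK KO. The 43 placental and fetal genes summed to 754 and 3264 in WT and to 765 and 1357 in NIK KO. Of the 12 of these past 2-fold in WT, 3 had a NIK KO ratio under 1.5 and 3 were past 2-fold in NIK KO too. Of the 9 fibroblast members 8 lay above the centre in WT, with a median of 1.36 over the 9. Lum (-0.00), a fibroblast gene, stayed at 6.65 and 7.97, well under the limit of 50 for counting. Fn1, which fibroblasts also make, and P2ry12 (1.07; -0.06 in NIK KO) had the same pattern of a higher WT ratio. The part of these genes in other results was not tested beyond leaving out the lists: without them 308 genes were past 2-fold higher and 289 lower. With values per library not used here, whether 1 or both WT cultures carry these genes cannot be told. As a test of the difference between genotypes, a two-sided z test on the deposited log2 fold changes and their standard errors, adjusted by the Benjamini-Hochberg method over 13384 genes, passed for 2 genes, Pgam1-ps2 and Gm10146, and for 0 of the 378 genes chosen for naming (116 genes had an unadjusted p under 0.05). The test takes the tables as independent although the same mice gave both treatments, so what it did not call is not shown to be alike in the genotypes.

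**Figure D5:**
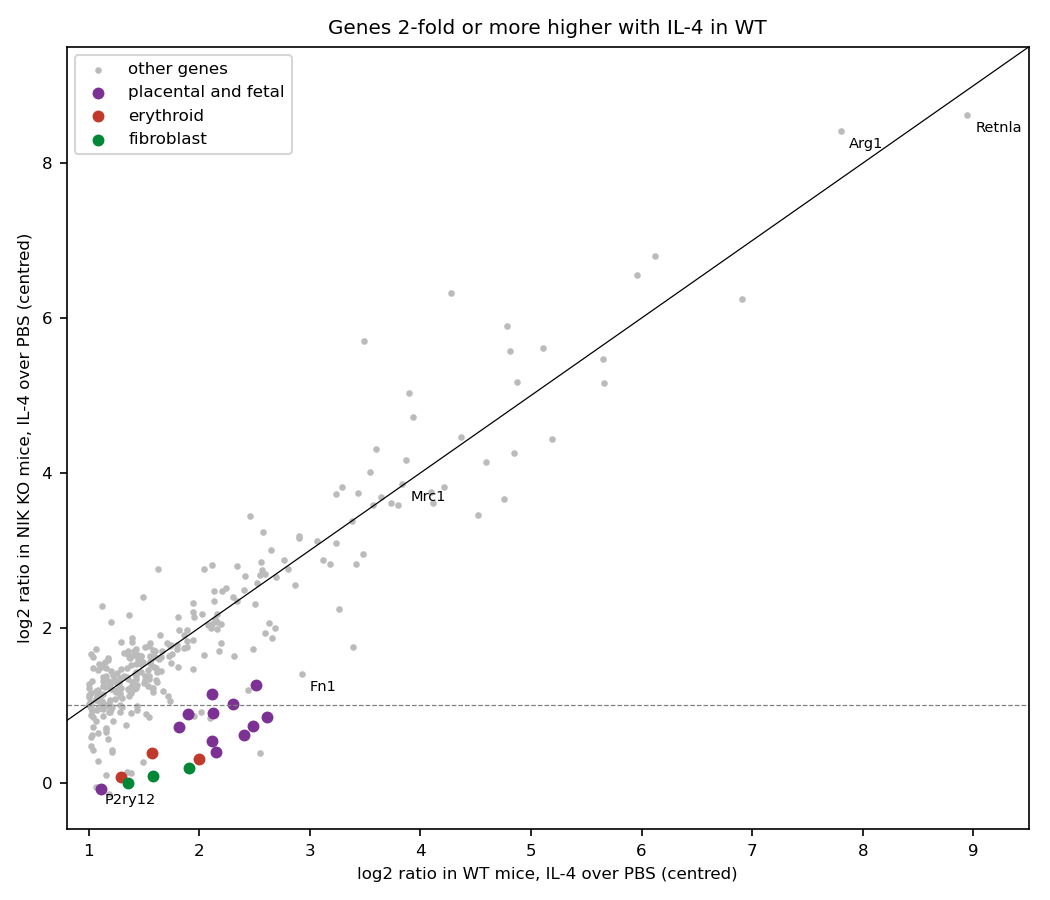
Genes at least 2-fold higher in WT, by their log2 ratio of IL-4 over PBS in WT (x axis) and in NIK KO mice (y axis); the solid line is equality and the dashed line 2-fold in NIK KO, and 325 of the 326 genes are drawn. Most genes lie along the line, while placental and fetal (purple), erythroid (red) and fibroblast genes (green) lie below it.

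Genes absent from the PBS table have no ratio. Of the 809 genes listed with IL-4 only, 10 had a WT mean of 50 or more, and the median over all 809 was 4.47. Among these, the homeobox gene Msx3 had a mean of 430.3 in WT with IL-4 and Rnase2a, an eosinophil-associated ribonuclease, 207. Chil4, the chitinase-like relative of Chil3, stood at 155 and Ccl17, the other ligand of CCR4, at 68.6. Il31ra, a receptor chain for interleukin 31, stood at 96.2 and Aldh1a2, which makes retinoic acid, at 58.2. The labels do not state the filter behind the PBS table, so no fold is given for them. Chil3 shares 44.8% of its 31-base words with other genes, Chil4 foremost, so reads of the pair may be divided between them.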

How the data were processed

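RNA of bone-marrow-derived macrophages was sequenced in 8 libraries of 4 groups, 2 mice each. Per the submitters' processing notes, Salmon 1.4.0, DESeq2 1.32.0 and genome build GRCm39 were used; no role, annotation or filter is given. For each treatment the authors deposited a table of NIK KO against WT. Per the file headers, its base mean is a signal, which averages counts divided by size factors over 4 libraries. The fold change and its standard error are on the log2 scale, per the file headers. A Wald statistic, which is a score, and raw and adjusted p-values complete what the authors deposited. Depth per library is unknown.

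The IL-4 table is named for KO against WT, and this direction was applied to both. A WT mean is 2 times the base mean over 1 plus the linear fold change. The approximate error is the root mean square of the standard errors of the 2 tables. The IL-4 to PBS ratio carries no test. Called means a ratio of 2 or more, or 0.5 or less, among genes counted.

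Named genes are Arg1, Retnla and Mrc1, the 15 genes at each end of the ratio that have a name and are no predicted gene, Riken clone or pseudogene, up to 4 members at each end of each list, and the receptor pathway. Bhlhe40, Klf4, Nfil3, Pparg, Dcstamp, Igf1, Itgb2, Ltc4s, Odc1, Lum and Tpbpa were added after their values were seen. The members, the 44 functional and 9 marker lists and the settings were chosen with earlier results of these data known. Shared 31-base words come from GENCODE M21 transcripts of GRCm38, not the authors' build. Of the genes counted, 8124 matched a searched RefSeq promoter by symbol. Printed promoters are cut to bases outside annotated exons. Python 3.11.15, numpy 2.4.6, pandas 2.3.3, scipy 1.17.1 and matplotlib 3.10.9 were used. Some genes are not reported here.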

Additional observations from a re-analysis of the deposited data

How the results depend on the processing

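No paired analysis was possible because the values analysed here are 1 mean per gene and group, although the same mice stand behind both treatments; leaving out single mice was not possible for the same reason. The main counts were 326 genes higher and 289 lower. Without centring they were 518 and 142, with no filter on low means 833 and 690, at an average WT mean of 200 or more 215 and 175, and at a base mean of 100 or more under both treatments 185 and 187. At 1.5-fold 726 genes were higher and 818 lower, and at 3-fold 147 and 67. Centring on the sum of WT means (342 and 271), on genes of base mean 1000 or more (330.0 and 289), a pseudocount of 5 (312 and 274), a demand for more than 2 approximate errors (313 and 248), and the means of the other genotype (362 and 279) kept both counts within 1.5 times. Without centring the median of all genes counted is 0.27 on the log2 scale. Then 43 of 378 named log2 ratios and 15 of 48 list medians change sign, and 17 named genes past 2-fold come under it. Under the reversed direction 45 named ratios change sign, of which P2ry12 (-0.0556) and Col1a2 (-0.0048) were past 2-fold; the cause was not tested. Counts past 2-fold in both genotypes (260.0 and 193) and without the fibroblast, erythroid, placental and fetal lists (308 and 289) were chosen after seeing the data. Depth per library is unknown, and genes with a mean near the smallest listed, such as Retnla with PBS, have imprecise ratios. Of the named genes 22 share over 50% of their 31-base words with another gene. Over 5 bins of transcript length the median log2 ratio ranged from -0.07 for the shortest genes to 0.06 for the longest.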

Other observations

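Genes of iron traffic differed in opposite directions. This list, and those of zinc and of interleukin 1 family receptors, were put together after the values were seen, so their counts are a description. Tfrc, the transferrin receptor that brings iron into cells, had a mean of 726 with PBS and 4965 with IL-4 in WT (5.69-fold higher, 2.51 ± 0.23; 2.31 in NIK KO). Hfe, which binds the transferrin receptor, was higher as well, 1079 against 3396 (2.62-fold). Slc40a1, ferroportin, the known iron exporter, went from 399.8 to 113 (4.27-fold lower, -2.09 ± 0.41; -2.11 in NIK KO). Slc25a37, mitoferrin 1, which carries iron into mitochondria, went from 1576 to 357 (5.30-fold lower), and Hp, haptoglobin, which binds free haemoglobin, from 306 to 85.4 (4.30-fold lower). The ferritin chains Fth1 (-0.64) and Ftl1 (-0.43) stood below the centre within 2-fold. In this list the importer was thus high and the exporter, mitochondrial carrier and haem oxygenase low, with 2 of 28 genes past 2-fold higher and 5 lower.

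Of the 20 zinc transporters and metallothioneins counted, 3 were past 2-fold, all higher, and 2 of these 3 also passed 2-fold in NIK KO. Slc30a4, which moves zinc out of the cytosol into vesicles, had a mean of 211 with PBS and 3530.2 with IL-4 (13.9-fold, 3.80 ± 0.26; 3.59 in NIK KO). The exporter gene Slc30a1 (1.20) and the importer gene Slc39a6 (1.28) were the others, and the zinc-binding metallothioneins Mt1 (0.36) and Mt2 (0.76) stayed within 2-fold.

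Of the 10 receptors listed of the interleukin 1 and 18 families 5 were counted, and 4 of these were past 2-fold higher. Among the 5 counted, 2 had 1 mean under 50, so the limit was passed only through their higher mean. The median log2 ratio was 1.80 over the 5 counted and 1.00 over the 7 with a level under both treatments. Il1rl1, the interleukin 33 receptor ST2, had a mean of 13.5 with PBS and 236 with IL-4 (14.6-fold, 3.87 ± 0.86), Il1rl2, the interleukin 36 receptor, 57.6 against 266 (3.85-fold), and Il18rap, a chain of the interleukin 18 receptor, 78.2 against 327 (3.49-fold). The cytokine genes Il1a, Il1b and Il18 were lower in the same cultures, Il1b by less than 2 approximate errors (-2.08 ± 1.06). Of these, only Il18 belongs to a receptor named here.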
